A study of Sus scrofa with 10 samples.

Results

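NFATC2, PAK2, TEC and SOS2 are 4 genes of the T cell receptor signalling pathway, and they were followed in the blood of pigs from birth to adulthood. They were taken from the mRNA table by their Ensembl identifiers, ENSSSCG00000007477 (NFATC2), ENSSSCG00000011843 (PAK2), ENSSSCG00000008820 (TEC) and ENSSSCG00000005015 (SOS2), which are 4 of its 12354 mRNAs. All 4 were found and none was lost to a filter. They were singled out from these same samples, so their common direction is no independent evidence for the pathway. Whole blood of 10 female Qingyu pigs was frozen without sorting of cells, and its RNA, once freed of ribosomal RNA, went into 1 strand-specific library per pig. There were 2 newborn pigs (D0), 2 at 7 days (D7), 2 at 28 days (D28), 2 at 180 days (D180) and 2 at 2 years (Y2), which makes 5 ages. No pig was followed over time, each library came from a different animal, and the labels name no treatment or genetic change at any age. The suckling period (D0, D7 and D28) was covered by 6 libraries and the late period (D180 and Y2) by 4.

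When a T cell receptor meets its antigen, kinases next to the receptor phosphorylate adaptor proteins, and the signal then divides into branches. Tec family kinases, of which TEC is a member, help to switch on phospholipase C gamma, whose products release calcium and activate protein kinase C. Calcium activates the phosphatase calcineurin, which lets NFAT transcription factors such as NFATC2 enter the nucleus and switch on cytokine genes. SOS2 is a guanine nucleotide exchange factor that loads Ras with GTP and so feeds the MAP kinase branch. PAK2 is a serine/threonine kinase activated by the small GTPases Rac and Cdc42 and acts on the actin cytoskeleton and on signalling. All of these proteins also work in other blood cells, TEC for example in B cells, myeloid cells and platelets.

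In the RefSeq annotation of Sscrofa11.1, the build to which the reads were aligned, NFATC2 lies on chromosome 17 from 52743570 to 52907373 and has 7 annotated transcripts. PAK2 lies on chromosome 13 from 133276122 to 133383506, with 4 transcripts. TEC lies on chromosome 8 from 38051053 to 38182259, with 5 transcripts. SOS2 lies on chromosome 1 from 179907578 to 180014941, with 1 transcript. The mRNA table gives 1 value per gene, so the transcripts of a gene cannot be told apart here.

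The level of an mRNA was deposited as FPKM, a count of fragments corrected for the length of the mRNA and for how many reads of the library were mapped. Such a value depends on everything else in the library, and in whole blood a few mRNAs, beta globin (HBB) among them, take most of it. The 10 highest mRNAs held 86.9% to 90.7% of the summed FPKM in the 6 suckling libraries, 68.1% to 68.2% at D180 and 83.2% to 84.2% at Y2. The median mRNA ranged from 0.831 FPKM in one D0 library to 5.64 FPKM in a D180 library. It did not simply mirror that share, since from D0 to D7 the mean share rose from 89.3% to 90.4% and the median rose too. Levels are therefore given on 3 scales. These are FPKM, FPKM after median-of-ratios scaling, which sets the typical mRNA to the same level in every library and assumes that most mRNAs do not change, and the rank of an mRNA among all mRNAs of its own library. How many reads stand behind a value is unknown, and 2 pigs per age limit the precision of every mean.

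In FPKM all 4 genes followed the same order of ages, with D180 highest, then Y2, D28, D7 and D0. The median mRNA had this order too, at means of 5.51, 3.01, 1.90, 0.994 and 0.848 FPKM, so the order is not particular to the 4. NFATC2 was measured at 0.603 and 0.783 FPKM at D0, 2.14 and 2.28 at D7, 9.78 and 10.4 at D28, 24.4 and 24.9 at D180, and 13.3 and 14.2 at Y2. It was the lowest of the 4 at birth, and no age overlapped another. PAK2 was measured at 3.82 and 3.94 FPKM at D0, 6.18 and 6.68 at D7, 10.2 and 11.4 at D28, 39.6 and 41.0 at D180, and 22.2 and 21.8 at Y2. It had the highest FPKM of the 4 in all 10 libraries, and its ages did not overlap either.

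TEC was measured at 1.06 and 0.966 FPKM at D0, 1.76 and 1.47 at D7, 2.01 and 1.77 at D28, 10.2 and 10.2 at D180, and 6.65 and 6.64 at Y2. From D7 onwards it was the lowest of the 4, and its D7 and D28 pigs nearly touched. SOS2 was measured at 2.86 and 3.02 FPKM at D0, 3.69 and 3.79 at D7, 4.20 and 4.42 at D28, 19.2 and 22.0 at D180, and 13.1 and 11.7 at Y2. Its ages did not overlap, though the suckling values lay within a narrow band.

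**Figure D1:**
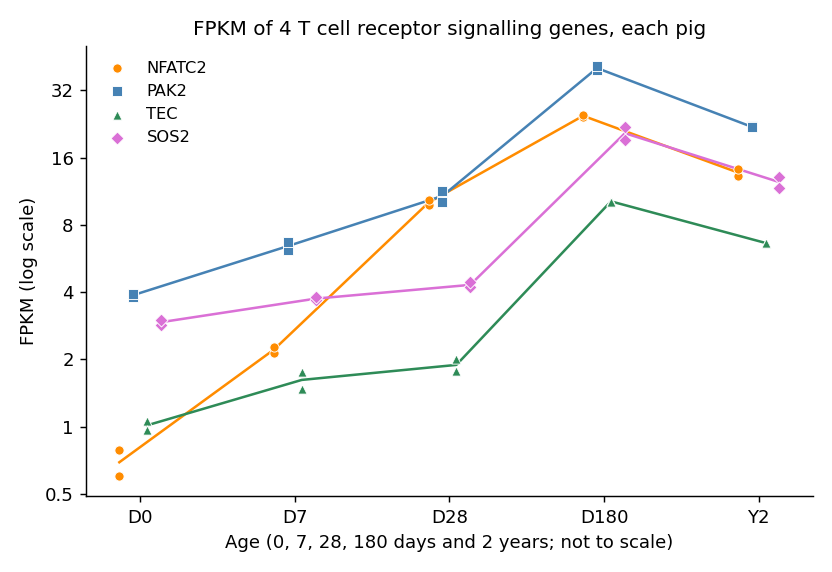
FPKM of NFATC2, PAK2, TEC and SOS2 in each of the 10 pigs (vertical axis, log scale) against age (horizontal axis, 5 ages in order, not to scale), with each point 1 pig and each line through the means of 2 pigs. All 4 lines peak at D180, and only the line of NFATC2 climbs steeply within the suckling period, from a mean of 0.693 FPKM at D0 to 10.1 FPKM at D28.

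The 4 genes differed in when the rise took place. The mean FPKM of NFATC2 at D7 was 3.19 times that at D0, at D28 14.5 times and at D180 35.6 times. PAK2 rose more evenly, to 1.66 times its D0 mean at D7, 2.78 times at D28 and 10.4 times at D180. TEC stood at 1.60 times its D0 mean at D7, 1.86 times at D28 and 10.1 times at D180. SOS2 stood at 1.27, 1.47 and 7.01 times its D0 mean at the same ages. For TEC and SOS2 nearly all of the difference in FPKM thus fell between D28 and D180, whereas NFATC2 had already gained much of it by D28.

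Tests used limma on log2(FPKM + 1) across all 12354 mRNAs, and a change was called at an adjusted p of at most 0.05 together with a log2 fold change of 1.5 or more in either direction. Between D0 and D7 none of the 4 genes was called, against a background of 0.453% of all mRNAs called higher. By adjusted p alone, which 18.5% of all mRNAs passed upwards, all 4 were higher at D7. The log2 fold change was 0.93 ± 0.076 (SE) for NFATC2 (limma adjusted p = 5.28e-05), 0.61 ± 0.073 for PAK2 (limma adjusted p = 0.000423), 0.38 ± 0.079 for TEC (limma adjusted p = 0.00764) and 0.27 ± 0.085 for SOS2 (limma adjusted p = 0.0477). Without D0 replicate 1 the limma adjusted p reached 0.197 for SOS2, and over all single libraries left out it reached 0.0538 for TEC. With a pseudocount of 1, this scale understates the change of NFATC2, which was below 1 FPKM at D0. With a pseudocount of 0.1 its log2 fold change was 1.55. The study, with the same fold change limit but a test it does not name for mRNAs, counted NFATC2 as rising from D0 to D7 and again to D28. The call limits are thus applied here to another measure of change.

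From D7 to D28 NFATC2 was the only member called, with a log2 fold change of 1.78 ± 0.076 (limma adjusted p = 1.25e-06), beside 2.02% of all mRNAs called higher. PAK2 rose by adjusted p alone, as did 65.3% of all mRNAs, with a log2 fold change of 0.66 ± 0.073 (limma adjusted p = 7.46e-05). TEC and SOS2 did not pass, with log2 fold changes of 0.14 ± 0.079 (limma adjusted p = 0.134) and 0.16 ± 0.085 (limma adjusted p = 0.116). Over the same step the median mRNA rose by 0.46 on the log2 scale, so the values of TEC and SOS2 lay below it, and after median-of-ratios scaling all but NFATC2 turned to lower values, as described further on.

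From D28 to D180 the other 3 genes were called and NFATC2 was not, where 17.8% of all mRNAs were called higher and 90.6% were higher by adjusted p alone. The log2 fold change was 1.81 for PAK2 (limma adjusted p = 1.22e-07), 1.96 for TEC (limma adjusted p = 1.25e-07) and 2.02 for SOS2 (limma adjusted p = 1.41e-07). NFATC2 rose by 1.21 (limma adjusted p = 7.52e-07), beside 1.07 for the median mRNA, whose change the pseudocount of 1 understates. After scaling NFATC2 stood at −0.26 over this step. Between D180 and Y2 none was called, and 1.25% of all mRNAs were called lower. By adjusted p alone, with which 84.6% of all mRNAs were lower at Y2, all 4 fell, by 0.80 for NFATC2, 0.84 for PAK2, 0.55 for TEC and 0.68 for SOS2 on the log2 scale, with limma adjusted p values of 2.2e-05 to 0.000222. The median mRNA fell by 0.65 over that step on this scale, a fall that the pseudocount of 1 also understates, and TEC fell by less. After scaling the 4 genes stood slightly above 0, from 0.01 for PAK2 to 0.21 for TEC, and none passed.

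Between the late and the suckling period all 4 genes were called higher, beside 23.2% of all mRNAs and 92.7% by adjusted p alone. NFATC2 had a log2 fold change of 2.31 ± 0.049 (limma adjusted p = 2.27e-09), PAK2 of 2.03 ± 0.047 (limma adjusted p = 2.67e-09), TEC of 1.90 ± 0.051 (limma adjusted p = 3.3e-09) and SOS2 of 1.88 ± 0.055 (limma adjusted p = 4.45e-09). The median over all mRNAs was 1.11, and 98.9% of mRNAs lay below NFATC2, 96.9% below PAK2, 94.2% below TEC and 93.7% below SOS2. The pseudocount of 1 understates the change of low mRNAs, which bears on these shares. After scaling they were 99.0%, 90.4%, 95.6% and 85.0% in the same order, thus lower for PAK2 and SOS2 but not for NFATC2 and TEC. A count of 4 called among genes that were themselves picked from these samples says little beyond their values.

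Median-of-ratios scaling brought the median log2 fold change of all mRNAs between the periods from 1.11 to 0.02, and it changed the course of each gene. Scaled NFATC2 was 1.38 and 1.72 at D0, 4.28 and 4.24 at D7, 9.77 and 10.7 at D28, 8.48 and 8.22 at D180, and 8.33 and 8.92 at Y2. Its peak thus moved to D28, and D180 and Y2 overlapped at a slightly lower level. Scaled PAK2 was 8.73 and 8.66 at D0, 12.3 and 12.4 at D7, 10.2 and 11.7 at D28, 13.8 and 13.5 at D180, and 13.9 and 13.7 at Y2. Birth was its lowest age, D28 lay below D7, and D180 and Y2 overlapped.

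Scaled TEC was 2.43 and 2.12 at D0, 3.52 and 2.74 at D7, 2.00 and 1.83 at D28, 3.56 and 3.36 at D180, and 4.16 and 4.18 at Y2. Its D28 pigs lay below all others, the newborns included, while D7 overlapped D180. Scaled SOS2 was 6.53 and 6.63 at D0, 7.37 and 7.04 at D7, 4.20 and 4.55 at D28, 6.68 and 7.25 at D180, and 8.22 and 7.37 at Y2. D28 again stood apart below every other age, and the D7 and D180 pigs overlapped.

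**Figure D2:**
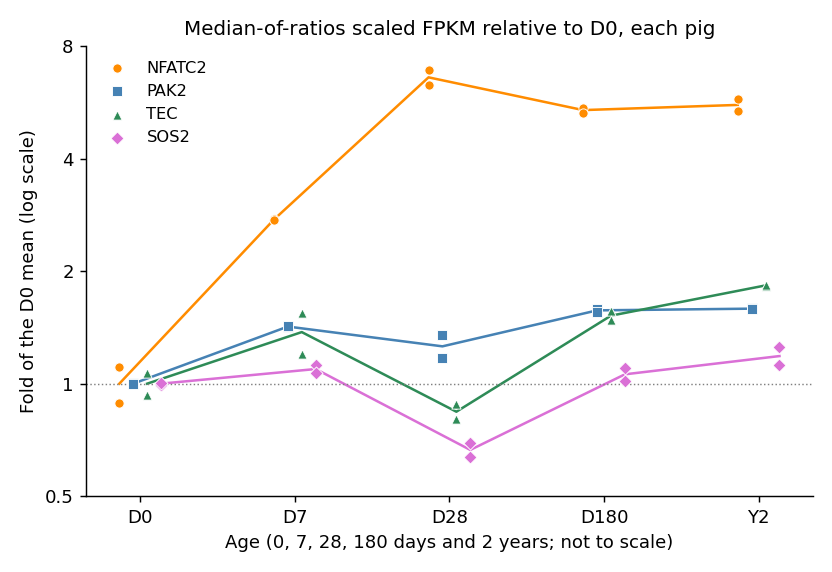
FPKM after median-of-ratios scaling, divided by the D0 mean of the same gene (vertical axis, log scale), in each of the 10 pigs against age (horizontal axis, not to scale), with points for pigs and lines through the means of 2 pigs. NFATC2 reaches 6.59 times its D0 mean at D28 and then levels off, PAK2 stays between 1.26 and 1.59 times from D7 on, and TEC and SOS2 dip to 0.841 and 0.665 times at D28.

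On this scale none of the 4 passed both call limits in any of the comparisons. Both limits were passed, in either direction, by 1.51% of all mRNAs from D0 to D7, 2.29% from D7 to D28, 3.03% from D28 to D180, 0.526% from D180 to Y2 and 3.59% between the periods. The counts that follow use the adjusted p alone. Scaled FPKM was also tested with a pseudocount of 1, which understates the log2 changes of genes at low scaled levels. NFATC2, PAK2 and TEC were higher at D7 than at D0, where 17.8% of all mRNAs were higher. Their scaled log2 fold changes were 1.05 ± 0.083 (limma adjusted p = 3.66e-05), 0.46 ± 0.071 (limma adjusted p = 0.0013) and 0.33 ± 0.10 (limma adjusted p = 0.0324), and SOS2 stood at 0.11 (limma adjusted p = 0.279). The result for TEC was lost in 6 of the 10 fits that left out a library, with limma adjusted p values up to 0.176, the highest without D7 replicate 1.

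The step from D7 to D28 divided the 4 genes. NFATC2 rose by 1.09 ± 0.083 on the scaled log2 axis (limma adjusted p = 2.29e-05), beside 18.4% of all mRNAs that were higher. TEC fell by 0.50 (limma adjusted p = 0.00495) and SOS2 by 0.61 (limma adjusted p = 0.000345), beside 22.8% of all mRNAs that were lower. As a ratio of scaled means, without the pseudocount, TEC and SOS2 fell nearly alike, to 0.612 and 0.608 times the D7 level. PAK2 stood at −0.16 and did not pass (limma adjusted p = 0.0985). Of all mRNAs 98.8% lay below NFATC2 at this step, against 31.5% below PAK2, 14.8% below TEC and 11.5% below SOS2. In unscaled FPKM the values of TEC, SOS2 and PAK2 were all above 0 over this step, so their direction depends on the scale.

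From D28 to D180 the order was turned around. TEC rose by 0.61 ± 0.10 (limma adjusted p = 0.002), SOS2 by 0.57 ± 0.075 (limma adjusted p = 0.000626) and PAK2 by 0.30 ± 0.071 (limma adjusted p = 0.0132) on the scaled log2 axis, where 14.4% of all mRNAs were higher. NFATC2 fell by 0.26 (limma adjusted p = 0.042), where 18% of all mRNAs were lower. This fall of NFATC2 lost its call in 7 of the 10 fits without a library, with limma adjusted p values up to 0.169 (without D180 replicate 2), and that of PAK2 was lost without either D180 pig, at up to 0.0691. From D180 to Y2 the scaled values ranged from 0.01 for PAK2 to 0.21 for TEC and none passed (limma adjusted p of 0.245 to 0.942), where 11.4% of all mRNAs passed in either direction.

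Late against suckling, the scaled log2 fold change was 0.84 ± 0.053 for NFATC2 (limma adjusted p = 3.14e-06), 0.50 ± 0.065 for TEC (limma adjusted p = 0.000279), 0.35 ± 0.046 for PAK2 (limma adjusted p = 0.000304) and 0.27 ± 0.049 for SOS2 (limma adjusted p = 0.00187). All 4 were thus higher by adjusted p, beside 25% of all mRNAs. Relative to the median mRNA, NFATC2 was higher by 1.20 in FPKM and by 0.81 after scaling, and SOS2 by 0.77 and 0.25. A factor per library shifts all log2 changes alike, so these pairs differ through the pseudocount of 1. In FPKM it understates the change of the median mRNA and so enlarges the lead of the genes over it.

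Ranks do not move with the scaling of a library, and they showed the same division. NFATC2 had a percentile rank (100 for the highest mRNA) of 41.8 and 47.3 at D0, 70.7 and 70.5 at D7, 88.3 and 88.7 at D28, 88.0 and 87.9 at D180, and 86.9 and 87.9 at Y2. It climbed from positions 7190 and 6517 among the 12354 mRNAs at birth to positions 1446 and 1394 at D28, and then stayed. PAK2 ranked at 84.3 and 84.0 at D0, 89.3 and 89.5 at D7, 88.8 and 89.9 at D28, 93.4 and 93.5 at D180, and 92.9 and 92.9 at Y2. It was already among the upper mRNAs at birth and reached positions 818 and 804 at D180.

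TEC ranked at 56.4 and 52.7 at D0, 65.8 and 59.5 at D7, 50.7 and 48.9 at D28, 69.3 and 67.9 at D180, and 72.1 and 72.4 at Y2. It was near the middle of all mRNAs at D28. SOS2 ranked at 79.3 and 79.3 at D0, 82.0 and 81.2 at D7, 72.0 and 73.7 at D28, 83.8 and 85.9 at D180, and 86.7 and 84.9 at Y2. Positions 3461 and 3247 at D28 were its lowest.

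**Figure D3:**
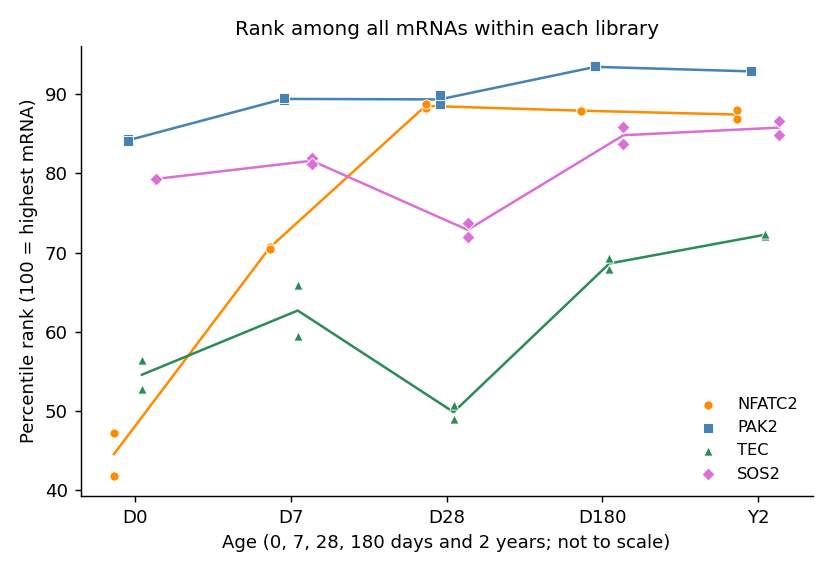
Percentile rank of NFATC2, PAK2, TEC and SOS2 among the 12354 mRNAs of the same library (vertical axis, 100 for the highest mRNA) in each of the 10 pigs against age (horizontal axis, not to scale), with points for pigs and lines through the means of 2 pigs. NFATC2 climbs from a mean of 44.5 at D0 to 88.5 at D28, while TEC and SOS2 fall from D7 to D28, to means of 49.8 and 72.9, and rise again.

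The rank of NFATC2 rose by 26.1 ± 1.65 percentile points from D0 to D7 (limma adjusted p = 3.85e-05), where 17.3% of all mRNAs rose, and by 17.9 points from D7 to D28 (limma adjusted p = 0.000146), where 20.9% rose. PAK2 rose by 5.23 points from D0 to D7 (limma adjusted p = 9.21e-05) and TEC by 8.10 (limma adjusted p = 0.0447), a call that TEC lost in 9 of the 10 fits without a library (limma adjusted p up to 0.218, the highest without D7 replicate 1), and SOS2 stood at 2.30 (limma adjusted p = 0.13). TEC fell by 12.8 points (limma adjusted p = 0.00603) and SOS2 by 8.73 points (limma adjusted p = 0.000489) from D7 to D28, where 18.7% of all mRNAs fell. PAK2 stood at −0.065 points over that step (limma adjusted p = 0.917). From D28 to D180 TEC rose by 18.8 points (limma adjusted p = 0.000975), SOS2 by 11.95 (limma adjusted p = 8.33e-05) and PAK2 by 4.11 (limma adjusted p = 0.000158), beside 18.9% of all mRNAs, and NFATC2 stood at −0.61 (limma adjusted p = 0.815). From D180 to Y2 none of the 4 passed on rank (limma adjusted p of 0.441 to 0.911), where 12.5% of all mRNAs passed in either direction. Late against suckling all 4 ranked higher, by 19.8 points for NFATC2, 14.7 for TEC, 7.38 for SOS2 and 5.53 for PAK2 (limma adjusted p of 1.4e-06 to 0.000165), beside 32.2% of all mRNAs.

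The ratio of 2 genes within a library is likewise free of the scaling, and it compares the 4 with each other directly. The 6 ratios were tested for a difference between ages by an exact permutation test over the 945 ways to pair the 10 libraries, whose smallest possible p is 0.00106, and were adjusted over the 6. All 3 ratios with NFATC2 differed between ages and were highest at D28 and lowest at D0. The log2 ratio of NFATC2 to SOS2 went from −2.09 at D0 to −0.76, 1.22, 0.26 and 0.15 at the later ages, a range of 3.32 (exact permutation test, adjusted p = 0.00476), with an SD between the 2 pigs of an age of 0.0069 to 0.21. That of NFATC2 to TEC went from −0.56 to 0.46, 2.42, 1.27 and 1.05, a range of 2.98 (exact permutation test, adjusted p = 0.00476). That of NFATC2 to PAK2 went from −2.50 to −1.54, −0.097, −0.71 and −0.68, a range of 2.40 (exact permutation test, adjusted p = 0.00476). NFATC2 was therefore well below PAK2 at birth and near it in FPKM at D28.

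The ratios among the other 3 genes moved less. The log2 ratio of PAK2 to SOS2 was, in order of age, 0.40, 0.78, 1.32, 0.97 and 0.83 (exact permutation test, adjusted p = 0.00476). That of PAK2 to TEC was 1.94, 1.99, 2.51, 1.98 and 1.73, a range of 0.78 that did not pass (exact permutation test, adjusted p = 0.0584). It passed at 0.0216 and 0.0305 when D7 replicate 1 or D7 replicate 2 was left out. TEC and SOS2 kept the steadiest ratio of the 6, at −1.53, −1.21, −1.19, −1.01 and −0.90 in order of age, a range of 0.63 that did not pass (exact permutation test, adjusted p = 0.073).

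**Figure D4:**
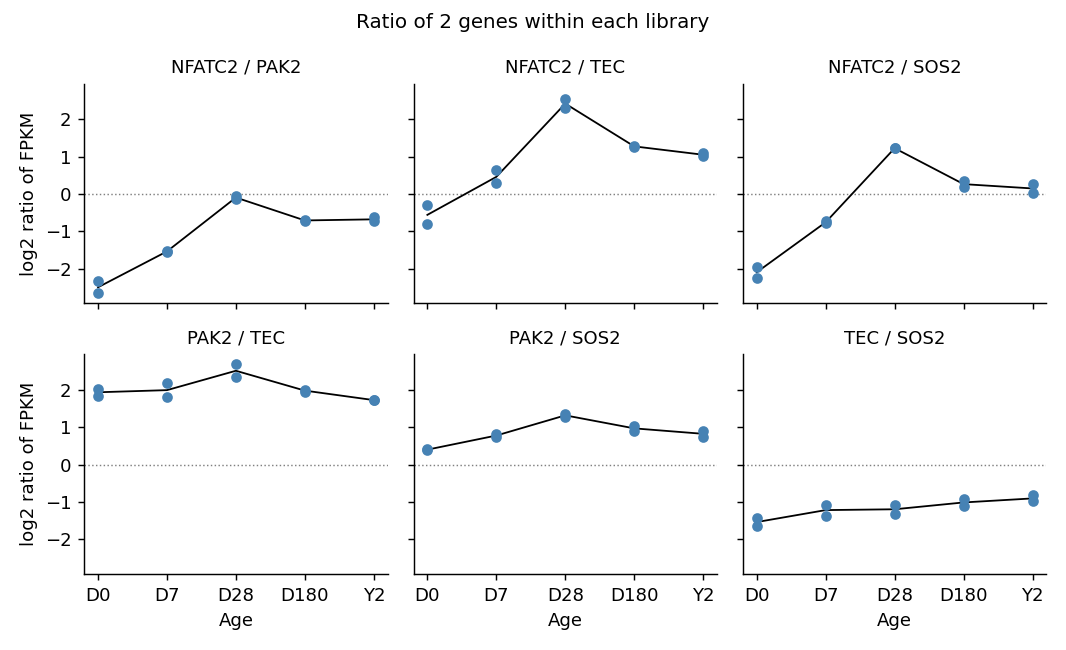
Log2 ratio of the FPKM of 2 genes within each library (vertical axis, the same in all 6 panels) against age (horizontal axis, not to scale), with each point 1 pig and lines through the means of 2 pigs. The 3 upper panels, with NFATC2 as numerator, rise to a peak at D28 and span 2.40 to 3.32 log2 units, while the 3 lower panels span 0.63 to 0.92.

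The other members of each family were compared with the 4 genes. Of the NFAT family NFATC1, NFATC3 and NFAT5 were in the table besides NFATC2. NFATC1, a calcium-regulated factor like NFATC2, had a mean of 0.635 ± 0.086 FPKM (SD, n = 2) in the newborns, and in order of age 3.28, 7.21, 26.1 and 13.5 FPKM thereafter. Its scaled log2 fold change between the periods, 0.87, was close to the 0.84 of NFATC2. Its scaled level rose by 1.60 from D0 to D7 (limma adjusted p = 2.07e-06) and stood at 0.18 from D7 to D28 (limma adjusted p = 0.0602), where NFATC2 rose by 1.05 and 1.09. NFATC3 went the other way after scaling, at −0.23 (limma adjusted p = 0.00295), although its log2 fold change in FPKM was 1.48. NFAT5, which responds to osmotic stress, stood at 0.06 after scaling (limma adjusted p = 0.297).

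Of the Tec kinases, BTK, which acts behind the B cell receptor and in myeloid cells, dipped at D28 as TEC did. Scaled BTK averaged, from birth to Y2, 6.44, 7.77, 4.06, 7.77 and 9.49, and it fell by 0.80 from D7 to D28 on the scaled log2 axis (limma adjusted p = 3.87e-05). TXK stood at 0.21 over the step (limma adjusted p = 0.306). BMX, found in myeloid and endothelial cells, fell from a scaled 1.97 to 0.109.

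SOS1, the other SOS exchange factor, showed no such dip that passed the test. Its scaled means were, from birth to Y2, 6.36, 5.64, 5.11, 5.86 and 6.02, with a log2 fold change of −0.13 from D7 to D28 (limma adjusted p = 0.412) where SOS2 fell by 0.61. The difference between the 2 was not tested. Of the PAK family PAK1 and PAK4 were in the table and lay far below PAK2, with means of 5.53 and 1.29 FPKM at D180 against 40.3 for PAK2. Neither passed between the periods after scaling, at 0.24 for PAK1 (limma adjusted p = 0.126) and 0.12 for PAK4 (limma adjusted p = 0.122).

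The pathway around the 4 genes was described with a list of 94 T cell receptor signalling genes in 9 branches, of which 83 could be matched in the mRNA table, the 4 included. In FPKM 51 of the 83 were called higher in the late period and 0 lower, beside 23.2% of all mRNAs called higher, with a median log2 fold change of 1.63 beside 1.11 for all mRNAs, and without the 4 genes it was 47 of 79. All 83 were higher by limma's adjusted p alone, as were 92.7% of all mRNAs. After scaling 0 of the 83 were called in either direction, 28 were higher and 16 lower by limma's adjusted p alone (25% and 26.1% of all mRNAs), and the median was 0.05 beside 0.02. Within this list NFATC2 was place 3 from the highest scaled change, TEC place 7, PAK2 place 12 and SOS2 place 19.

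The branches are set beside the same 23.2% of all mRNAs called higher. Of the receptor and coreceptor genes 5 of 11 were called higher in FPKM in the late period, from PTPRC (2.00), the CD45 phosphatase, down to PDCD1 (0.63), the PD-1 receptor. Of the proximal kinases and phosphatases 7 of 8 were called, from the phosphatase PTPN6 (2.09) to the kinase LCK (1.21). Of the adaptors 5 of 10 were called, from LCP2 (2.27), which encodes SLP-76, to NCK2 (0.60). The branch of SOS2, Ras and MAP kinase, had 9 of 13 called, and SOS2 itself had the largest change while FOS had the smallest (0.71). The branch of PAK2 had 7 of 9 called, from the exchange factor VAV2 (2.09) to PAK4 (0.64). In the calcium and NFAT branch of NFATC2 6 of 10 were called, from NFATC1 (2.36) to STIM1 (1.34), the calcium sensor of the endoplasmic reticulum. The protein kinase C theta and NF-kB branch had 7 of 11 called, from BCL10 (2.10) to IKBKG (0.70), and the PI3 kinase branch 5 of 8, from PIK3CD (1.96) to AKT2 (1.00). None of the 3 induced cytokine and ligand genes was called, and their values ran from 1.06 for CD40LG to 0.29 for IFNG.

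After scaling 25% of all mRNAs were higher in the late period and 26.1% lower by limma's adjusted p alone. By the same rule 5 of the 10 calcium and NFAT genes were higher and 2 lower, 6 of the 11 in the NF-kB branch were higher and 3 lower, and 2 of the 9 in the PAK branch were higher and 0 lower. In the Ras and MAP kinase branch 3 of 13 were higher and 2 lower. Of the proximal kinases and phosphatases 3 of 8 were higher and 1 lower, and of the adaptors 4 of 10 were higher and 3 lower. The receptor genes had 3 of 11 higher and 2 lower, the PI3 kinase branch 2 of 8 higher and 2 lower, and the induced genes 0 of 3 higher and 1 lower.

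**Figure D5:**
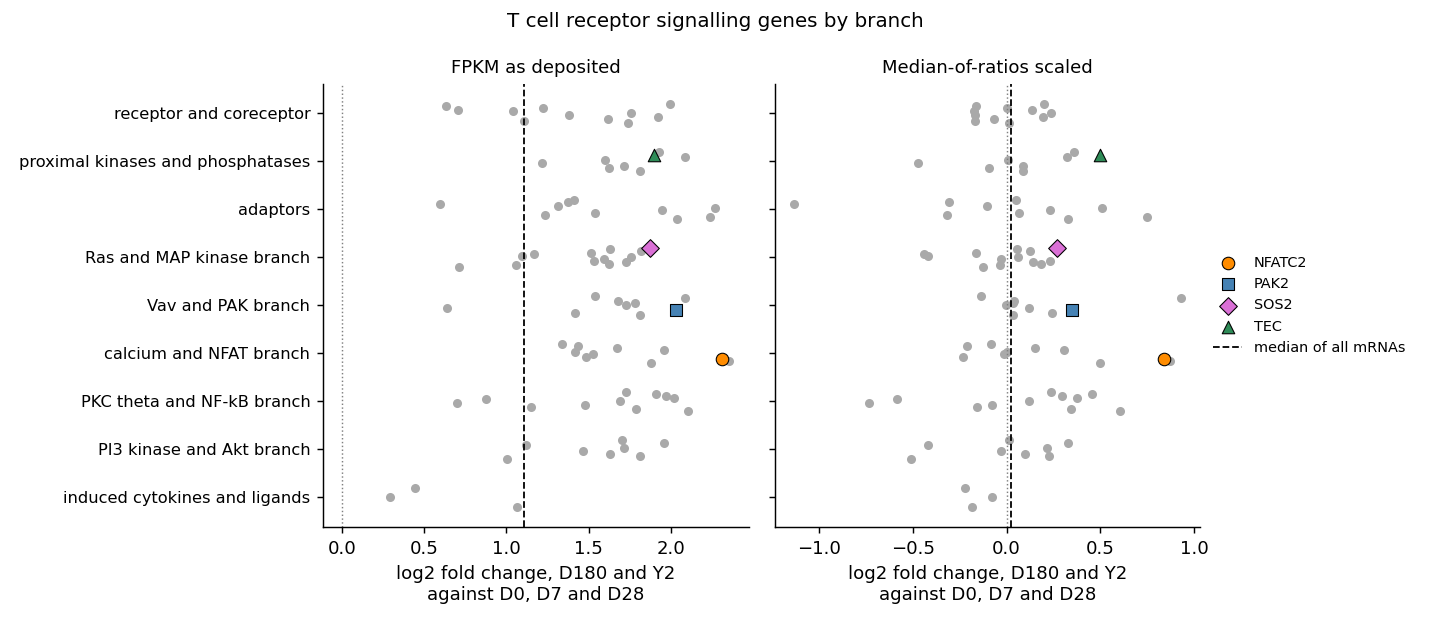
Log2 fold change of the late against the suckling period (horizontal axes) for the 83 listed T cell receptor signalling genes by branch (vertical axis), as FPKM on the left and after median-of-ratios scaling on the right, with a grey point per gene, coloured marks for the 4 genes and a dashed line for the median of all mRNAs (1.11 and 0.02). On the left all points lie above 0, and on the right they lie on both sides of it, with NFATC2 near the upper end at 0.84.

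The steps between ages separated the 4 genes within the list as well. From D7 to D28, after scaling, NFATC2 was place 2 of 83 behind CD8A (2.37), the CD8 coreceptor of cytotoxic T cells, whereas PAK2 was place 65, TEC place 75 and SOS2 place 78. From D28 to D180 TEC was place 4, SOS2 place 5 and PAK2 place 11 behind NFKBIA (0.87), an inhibitor of NF-kB, and NFATC2 was place 54. CD8A then had the lowest value, at −1.76. CD8A and NFKBIA were named here after their values were seen. Over the whole list 29 genes were higher and 11 lower by limma's adjusted p from D7 to D28, beside 18.4% and 22.8% of all mRNAs. From D28 to D180 12 were higher and 22 lower, beside 14.4% and 18% of all mRNAs.

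Whole blood mixes cells, and in such samples fewer cells of a type and less RNA per cell cannot be told apart. The T cell label was checked with 10 of 12 T cell markers found in the table, none of them at 0 in any library. Some of them also belong to the signalling list. Their summed scaled FPKM was 110 to 125 at D0, 127 to 129 at D7, 195 to 196 at D28, 140 to 143 at D180 and 133 to 137 at Y2. The sum of the T cell markers was thus highest at D28, the age at which scaled NFATC2 peaked and TEC and SOS2 were lowest. Red cell and reticulocyte markers (6 of 9 found) far exceeded them, with a summed scaled FPKM of 1055382 to 1103095 at D0 and 37463 to 47439 at D180.

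Markers of other white cells moved with age too, and none of those found was at 0 in any library. The 5 of 6 monocyte markers found summed to a scaled 178 to 195 at D0, 93.7 at D7, 31.0 to 33.6 at D28, 55.0 to 56.9 at D180 and 47.9 to 50.5 at Y2. The 4 of 7 neutrophil markers summed to 191 to 203, 96.8 to 97.9, 11.6 to 13.1, 43.8 to 47.6 and 59.1 to 60.9 at the same ages. Both sums were lowest at D28, the age of the dip of TEC and SOS2. A sum leans on its most abundant markers, and the single markers did not all move with it. From D0 to D7 3 of the 5 scaled monocyte markers were higher and 1 lower by limma's adjusted p. Of the 4 neutrophil markers 2 were higher and 2 lower, beside 17.8% of all mRNAs higher. From D7 to D28 all 5 and all 4 were lower, beside 22.8% of all mRNAs. The sum of the 6 of 7 B cell markers rose from 18.7 to 19.1 at D0 to 25.2 to 25.6 at D7, 37.8 to 38.4 at D28, 61.8 to 62.4 at D180 and 67.6 to 69.5 at Y2. From D7 to D28 5 of these 6 were higher and 1 lower by limma's adjusted p, beside 18.4% and 22.8% of all mRNAs. The lower one was BLNK, with scaled means of 3.99 and 2.77. The sum of the 6 of 6 NK cell markers was highest at D28, at 106 to 123, against 25.5 to 56.4 at the other ages. That of the 3 of 6 platelet markers went from 288 to 291 at D0 down to 44.2 to 47.1 at Y2. The part of any cell type in the course of the 4 genes was not tested.

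Set against the T cell markers of the same library, the 4 genes again parted. NFATC2 was 1.31% of the summed T cell marker FPKM in the newborns and, in order of age, 3.33%, 5.23%, 5.90% and 6.39% later, with no pig at D0 above 1.37%. Its share therefore did not peak at D28, where its scaled level did. PAK2 was 7.41%, 9.66%, 5.60%, 9.65% and 10.2% at the 5 ages, TEC 1.95%, 2.45%, 0.98%, 2.45% and 3.09%, and SOS2 5.60%, 5.63%, 2.24%, 4.92% and 5.77%. For PAK2, TEC and SOS2 the D28 pigs lay below all others. These shares were computed after the data had been seen and were not tested.

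The mRNAs whose course was most like that of each gene were sought among 7655 mRNAs with a symbol and a mean of at least 1 FPKM, by the root mean square difference of centred log2 scaled FPKM over the 10 libraries. For NFATC2 they were SLA-DQB1 (0.18), a chain of the pig class II histocompatibility complex, SETD1A (0.22), a histone methyltransferase, and ITPR3 (0.23), a calcium channel of the endoplasmic reticulum. For PAK2 they were FLI1 (0.065), an ETS family transcription factor of blood cells, MEPCE (0.073) and PRRC2C (0.079). For TEC they were PLP2 (0.12), HIF1A (0.13), the oxygen-regulated transcription factor, and BLNK (0.14), an adaptor of the B cell receptor. For SOS2 they were VPS13C (0.066), SLC25A24 (0.067), a mitochondrial carrier, and RASSF3 (0.088).

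Within the 4 the nearest pair was TEC and SOS2, with a difference of 0.24, followed by PAK2 and TEC at 0.29 and PAK2 and SOS2 at 0.30. NFATC2 was farther from each of them, at 0.84 from PAK2, 0.99 from TEC and 1.12 from SOS2. Among all mRNAs compared, SOS2 was place 98 from TEC, and TEC was place 404 from SOS2. These distances describe the 10 libraries and carry no test, since libraries of the same age share their course.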

How the data were processed

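The authors aligned the reads with HISAT2 2.0.4 to Sscrofa11.1, quantified mRNAs with StringTie 1.3.3 and deposited FPKM, fragments divided by transcript length and by the mapped reads of the library, for the mRNAs above 0.5 FPKM in at least 1 library. Low FPKM held no steps of whole reads, so the depth behind a value is unknown. A shift in a few abundant mRNAs moves the FPKM of all others. The lncRNA table was not used here, and every column of the mRNA table was mapped to a pig by its label. Ages came from the sample labels.

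Symbols and positions were taken from RefSeq on Sscrofa11.1 and an identifier table, which named 9735 of the 12354 identifiers. The test was limma (version 3.58.1, R 4.3.3) on log2(FPKM + 1) with 5 ages as groups and its mean-variance trend, and p-values were adjusted after Benjamini-Hochberg over all 12354 mRNAs. The study does not name its test for mRNAs, and the call limits are its own. Late against suckling contrasts the mean of D180 and Y2 with the mean of D0, D7 and D28 in the same fit. Median-of-ratios factors, from 0.437 to 3.03, used the 11527 mRNAs above 0 in every library. Percentile ranks of all mRNAs were fitted with limma in the same way. The limma p-values rest on the spread between the 2 pigs of an age, pooled over the 5 ages and drawn towards the trend over all mRNAs. The exact p-values rest on the ways to pair or split the 10 libraries. Other steps used Python 3.11.15, numpy 2.4.6, pandas 2.3.3, scipy 1.17.1 and matplotlib 3.10.9, and the tests were checked on simulated data.

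The 4 genes, the pathway, family and marker lists and the tests were chosen with earlier results of these data known. Besides the 4, genes were named if they belonged to the NFAT, PAK, Tec or SOS families, had the largest or smallest late against suckling log2 fold change in FPKM of their branch, or were among the 3 nearest in course to a member. Some results on genes of these lists are not reported here. Of the 94 pathway genes 4 had no symbol in the tables used and 7 were not among the listed mRNAs. Alternatives were a pseudocount of 0.1, only mRNAs with 1 FPKM or more in 2 or more libraries, no trend, only the libraries compared, removal of the 10 highest mRNAs, the replicate block and each library left out. Those on the scaled values and the ratios, and the share of T cell markers, were added after seeing the data. Same-numbered pigs are different animals, and their deviations from the age means correlated at −0.082 to 0.078 over the 10 pairs of ages.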

Additional observations from a re-analysis of the deposited data

How the results depend on the processing

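Median-of-ratios scaling and, less so, removal of the 10 highest mRNAs changed the counts of called genes. The number of the 4 called was 1 from D0 to D7 with a pseudocount of 0.1 (NFATC2, at 1.55), 0 from D7 to D28 and 0 from D28 to D180 under both rescalings, and, late against suckling, 0 after median-of-ratios scaling and 1 (NFATC2) with the 10 highest removed. The late against suckling log2 fold changes then fell short of the call limit, at 0.84 for NFATC2, 0.35 for PAK2, 0.50 for TEC and 0.27 for SOS2 after scaling, and at 1.33 for PAK2, 1.32 for TEC and 1.205 for SOS2 with the 10 highest removed. Of the 83 pathway genes 0 and 5 were called, and 49 to 53 with each library left out. For a pseudocount of 0.1, removal of the 10 highest and libraries left out, the share of all mRNAs called is not given. How usual these counts are is thus not shown. Directions turned after median-of-ratios scaling from D7 to D28 (PAK2 −0.16, TEC −0.50, SOS2 −0.61), from D28 to D180 (NFATC2 −0.26) and from D180 to Y2 (NFATC2 0.041, PAK2 0.014, TEC 0.21, SOS2 0.14). With the 10 highest removed they turned for TEC (−0.15) and SOS2 (−0.20) from D7 to D28 and for TEC (0.056) from D180 to Y2. Both rescalings are built to multiply all FPKM of a library by 1 factor, which sets these shifts. With each library left out, scaled NFATC2 from D180 to Y2 ranged from −0.0035 to 0.085. The rank of PAK2 from D7 to D28 ranged from −0.62 to 0.49, 0.016 without D7 replicate 2, and from D180 to Y2 that of NFATC2 ranged from −1.004 to 0.032 and that of SOS2 from −0.085 to 2.01. The ratio of PAK2 to TEC passed with FPKM + 1 (range 0.75, exact permutation test, adjusted p = 0.00889) and ranged from 0.615 to 0.955 with each library left out. Late against suckling, over 210 splits, none of the 6 ratios passed (exact permutation test, adjusted p of 0.143 to 0.738). The differences were 0.68 for NFATC2 to PAK2, 0.39 for NFATC2 to TEC, 0.75 for NFATC2 to SOS2 and 0.065 for PAK2 to SOS2. TEC to SOS2, at 0.36, had the lowest adjusted p, and PAK2 to TEC stood at −0.29. The cause was not tested. With the replicate block, which joins different animals, the limma adjusted p of SOS2 from D0 to D7 became 0.059, and the number of the 4 called stayed at 0, 1, 3, 0 and 4 and that of the pathway genes at 51. Depth per value is unknown, and 2 pigs per age limit the precision.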
